A study of Mus musculus with 54 samples.

Results

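CTCF sites at protein-coding promoters were followed across the 22 CTCF chromatin immunoprecipitation sequencing (ChIP-seq) libraries of a mouse cell series. Overlapping CTCF peaks of all libraries were merged into sites, sites called in 2 or more libraries were kept, and a kept site was a promoter site when its median summit lay within 1 kb of the start of a protein-coding gene. This gave 7991 promoter sites of 52646 kept sites (15.2%), and the remaining 44655 are called other sites here. The promoter sites lay nearest to 7659 of 21951 annotated protein-coding genes (34.9%). Of these genes, 7330 had 1 promoter site, 326 had 2 and 3 had 3, namely Cgnl1, Tcp11 and Tead1. Position and the number of calls chose the sites, so neither is a finding in itself.

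All cells were E14 mouse embryonic stem cells (ESCs) or neural progenitor cells (NPCs) obtained from them in 2 days of differentiation. The rescue groups were NPC ΔZF1, NPC WT, ESC ΔZF1 and ESC WT, with 4 CTCF libraries each. In all rescue cells both endogenous Ctcf alleles carried an mAID-eGFP degron, 1 Rosa26 allele expressed OsTIR1(F74G), the Hb9/Mnx1 locus carried an mCherry reporter, and a doxycycline-inducible Flag-Halo CTCF stood at the Tigre locus. That transgene was full-length in the WT line and lacked zinc finger 1, an RNA-binding finger, in the ΔZF1 line. Each line was 1 clone, so genotype and clone cannot be told apart. Rescue cells were given 1 µM 5-Ph-IAA, which degrades the tagged endogenous protein, and 1 µg/ml doxycycline for 24 hours. The other groups were NPCs with 2 CTCF libraries each, called the E14 and polyA libraries together. PodxlpA and Grb10pA cells were homozygous clones with an eGFP cassette and an SV40 polyadenylation signal that ends the Podxl or Grb10 RNA early, and E14 cells were the unedited parent, without degron, transgene or drug. The cohesin subunit Smc3 was mapped in 2 libraries of each group, and Rad21 in 2 libraries of each rescue group.

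CTCF binds DNA through a row of zinc fingers and recognizes a long, asymmetric motif. Cohesin, the ring complex that contains Smc3 and Rad21, extrudes chromatin loops and tends to stop where CTCF is bound with its motif facing the oncoming ring. At promoters CTCF can anchor contacts between a gene and distant enhancers, and many of these promoters lie in CpG islands, where the DNA is rich in G and C and the chromatin is open.

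The CTCF libraries held 5755 to 45941 peaks. The libraries of a group differed strongly. The background fragment coverage recovered from the lists, a stand-in for depth, was 1.14 to 2.39 fragments per bp in the rescue libraries numbered 1 and 4, and 0.392 to 0.905 in those numbered 2 and 3. It was 0.347 to 0.647 in the E14, PodxlpA and Grb10pA libraries. Peak names inside the lists of replicate 4 carry the replicate number 2, but the lists of replicates 2 and 4 shared 0 identical peaks in each rescue group, and the study describes the libraries as biological replicates. The number of promoter sites called per library ran from 766 in NPC ΔZF1 replicate 3 to 7368 in NPC ΔZF1 replicate 4.

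The promoter sites with the highest enrichment are described first, and they are not typical. Of all 7991 promoter sites, 447 (5.59%) were called in all 22 libraries and 31.3% held the CTCF motif. A site was ranked by the percentile of its fold enrichment, the ratio of ChIP to local background at the summit, among all peaks of the library. The 6 highest-ranked promoter sites that were called in all 22 libraries and held the CTCF motif are given here as mm10 reference sequence on the strand of the motif, with the 14-letter core in capitals.

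Nipsnap2 (chr5:129724953-129724982, minus): cagtgctgCCGCCAGGGGGCGTgccaagaa
Exd1 (chr2:119547120-119547149, minus): tccccccgGCCGCAGGGGGCGCtgagagcc
Rapgef1 (chr2:29619631-29619660, plus): actccaagCCGGTAGAGGGCGCtgcgcctc
Vps36 (chr8:22192747-22192776, plus): agtggcagCCGCCAGGGGGCGCcgcctgtc
Map3k15 (chrX:159988105-159988134, plus): cgggggagCCGGCAGGGGGCGCccttggcg
Gins4 (chr8:23237877-23237906, minus): ccgattcgCCACAAGACGGCGCtgcctggt

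These cores differed from the consensus at 1 or 2 letters, and a site was counted as holding the motif when such a core, with at most 2 mismatches on either strand, lay within 50 bp of the summit. The Nipsnap2 site was 68 bp upstream of the start and was at the 100th percentile in every library, to 1 decimal, with a fold enrichment between 92.7 and 526. The site of Rapgef1, an exchange factor for the GTPase Rap1, lay 52 bp upstream, that of Vps36, an ESCRT-II subunit, 20 bp upstream, that of Map3k15, a MAP kinase kinase kinase, 325 bp upstream, and that of Gins4, a subunit of the GINS replication complex, 224 bp upstream. In 5 of these 6 sites the motif pointed along the gene's strand, the exception being Nipsnap2. An Smc3 peak lay on the Nipsnap2, Rapgef1, Vps36, Map3k15 and Gins4 sites in 14 of 14 Smc3 libraries. The site of Exd1, which encodes an exonuclease domain protein of the piRNA pathway, had none in 14 Smc3 and none in 8 Rad21 libraries, although its CTCF percentile lay between 99.9 and 100. The other members of the 10 highest were Kdm3b, a histone H3 lysine 9 demethylase, Disp3, Myrf, a transcription factor of myelinating glia, and Dhrs13, all upstream of the start. Kdm3b was the 1 site of the 10 without the motif.

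Promoter sites differed from other sites in sequence and shape. How often they were called is given as a description, since calls in these libraries chose the sites. Averaged over the 22 libraries, 41.1% ± 21.6 (SD) of the promoter sites and 41.1% ± 18.9 of the other sites had a peak, a difference of -0.00351 percentage points. This average joined 2 kinds of library. In the 6 E14 and polyA libraries 28.0% of promoter sites and 49.5% of other sites were called, a difference of -21.4 points with promoter sites lower in all 6. In the 16 rescue libraries 46.1% of promoter and 38.0% of other sites were called, a difference of 8.04 points with promoter sites higher in 9 of 16. Of the promoter sites, 4341 (54.3%) were called in none of the 6 E14 and polyA libraries, against 10455 (23.4%) of the other sites. The rescue and E14 libraries differ in cell line, in drug treatment, in background coverage and in library numbers, and these cannot be told apart. The part of depth in these calls was not tested.

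The peaks themselves were wider at promoters. In this and the later tests of promoter against other sites, libraries share sites, so p covers the spread between libraries only. The median width was 373 ± 105 bp at promoter sites and 292 ± 64.7 bp at other sites, 80.8 ± 54.4 bp more (SD over 22 libraries), and it was larger at promoter sites in 22 of 22 libraries (permutation test with sign flips, p = 1e-05, the smallest it can give). The widest site by its mean width, 2027 bp, lay 231 bp upstream of Adgrl1, which encodes the adhesion receptor latrophilin-1, and its peaks were between 1384 and 3064 bp wide. For the rank of enrichment no difference between the kinds of site passed the test, but the libraries went opposite ways. Promoter sites had the lower mean percentile in rescue libraries numbered 1 and 4, except NPC ΔZF1 replicate 4 (55.9, against 54.7 at other sites). They had the higher one in those numbered 2 and 3, except NPC WT replicate 2 (49.8 against 51.3). In ESC ΔZF1 it was 42.4, 53.1, 52.6 and 43.2 in replicates 1 to 4, against 54.7, 50.0, 50.7 and 53.8. The part of depth was not tested. The mean percentile was 50.4 ± 4.48 at promoter sites and 51.5 ± 1.61 at other sites, a difference of -1.15 ± 5.69 (SD, permutation test with sign flips, p = 0.352), with promoter sites higher in 12 of 22 libraries.

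The CTCF motif was less frequent at promoter sites. Of the called sites of a library, 49.6% ± 14.4 of promoter and 77.9% ± 7.21 of other sites held it, a difference of -28.2 ± 8.12 points (SD over 22 libraries), and promoter sites were lower in 22 of 22 libraries (permutation test with sign flips, p = 1e-05). Over all sites, 2498 of 7991 promoter sites held a motif, which is 31.3% (95% Wilson interval 30.3 to 32.3, counting error only), against 75.3% of the other sites (74.9 to 75.7). Windows of the same length centred on all 21951 protein-coding starts held it in 5.69%. The median GC content within the window was 70.3% at promoter sites and 52.5% at other sites, and the median ratio of observed to expected CpG was 0.83 at promoter sites and 0.23 at other sites.

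**Figure D1:**
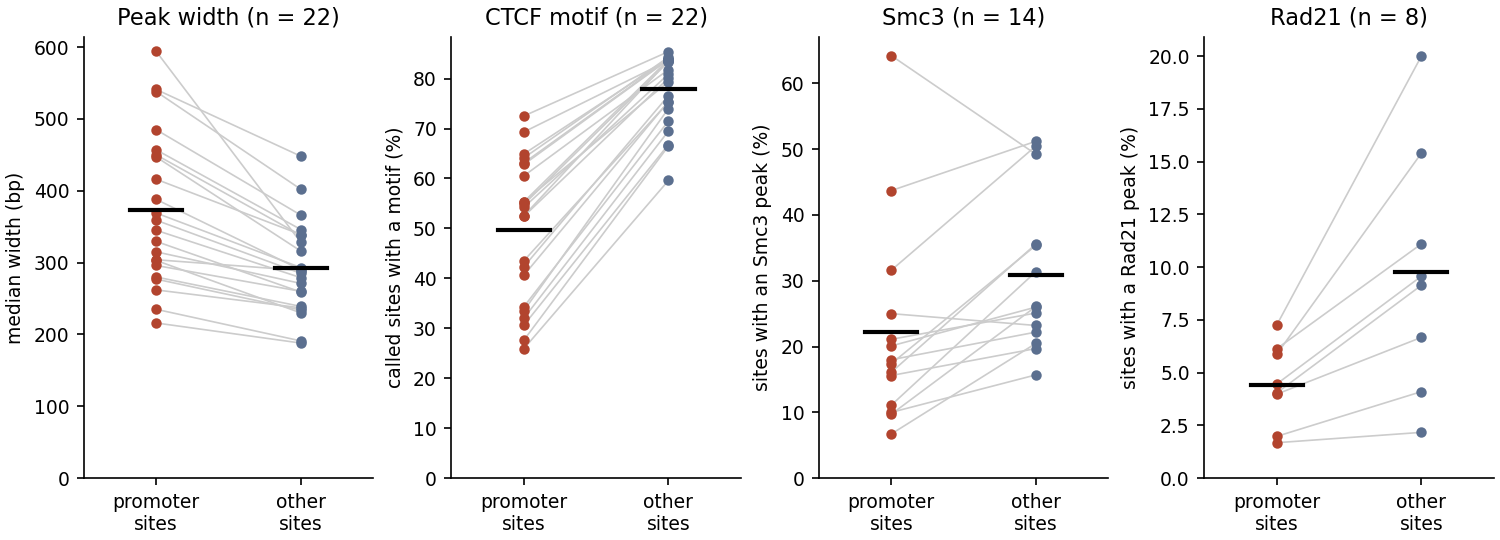
Median peak width in bp, percentage of called sites with the CTCF motif, and percentages of sites with an Smc3 or a Rad21 peak, each for promoter sites (red, left) and other sites (blue, right). A point is 1 library, grey lines join the values of a library, black bars are means, and every axis starts at 0. Width is higher and motif share lower at promoter sites in all 22 libraries, Smc3 is lower in 12 of 14 and Rad21 in 8 of 8.

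The motif share depended on how widely a site was called. Among promoter sites called in 2 to 4 libraries (2656 sites) 14.8% held it, then 21.6% in 5 to 9, 39.1% in 10 to 14, 49.7% in 15 to 19 and 73.6% in 20 to 22 libraries. Other sites spanned 62.5% to 86.2% over the same classes. The 447 promoter sites called in all 22 libraries held it in 78.3% (74.2 to 81.9), and the 1436 other sites called in all 22 in 85.2% (83.3 to 87). Both ends of the distribution were well filled, since 1136 promoter sites (14.2%) were called in 2 libraries and 447 (5.59%) in all 22, against 14.5% and 3.22% of other sites. A further 2327 sites in the same windows were called in a single library and left out. Their mean percentile had a median of 8.89, against 13.6 for promoter sites called in 2 libraries. At the distance limit, 288 kept sites lay in the last 100 bp inside it and 262 in the first 100 bp outside it, with motif shares of 47.2% and 45.4% and a median of 8 libraries in both.

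**Figure D2:**
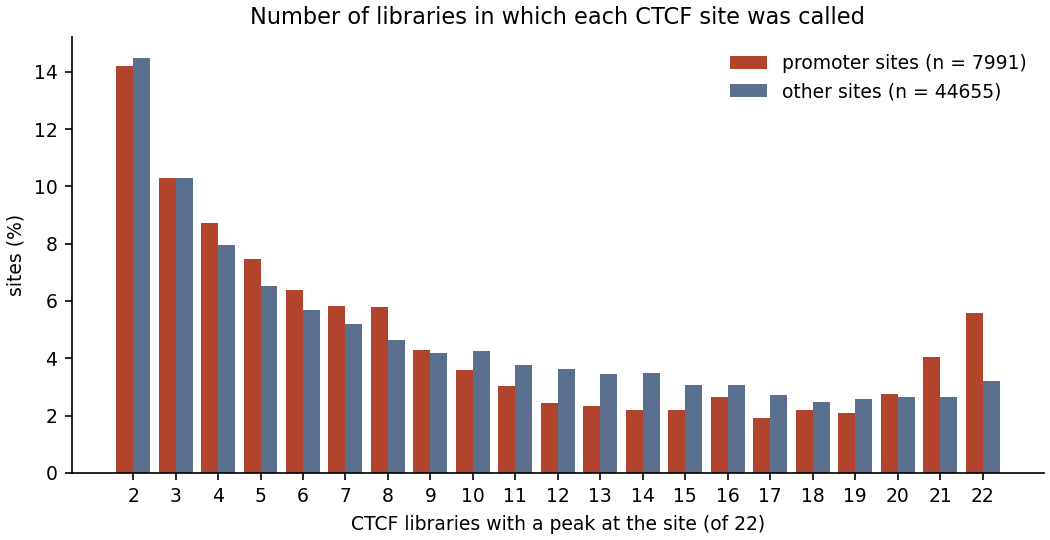
Percentage of promoter sites (red, n = 7991) and of other sites (blue, n = 44655) by the number of CTCF libraries, from 2 to 22, that called the site. Promoter sites fill the last class more than other sites do, 5.59% against 3.22%, and fall below them in the classes from 10 to 19 libraries.

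Position relative to the start separated promoter sites into kinds. The 969 sites in the 100 bp just upstream of the start were called in a median of 15 libraries, and 33.5% of them in at least 20. Of these sites 47.6% held the motif, and 72.7% of those motifs lay on the gene's strand. The 1603 sites more than 100 and up to 250 bp downstream, the densest stretch with 1069 sites per 100 bp, were called in a median of 5 libraries, and 3.87% of them in at least 20. The motif was found at 16.5% of them, on the gene's strand in 43.8%. An Smc3 peak in at least 7 of 14 libraries lay on 35.5% of the sites just upstream and on 5.99% of that downstream stretch. The outermost upstream sites, more than 500 bp away, held the motif most often (58.8%) but with no lean to a strand (53.0% on the gene's strand) and were called in a median of 9 libraries. These shares are descriptions, and no test was made of them.

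**Figure D3:**
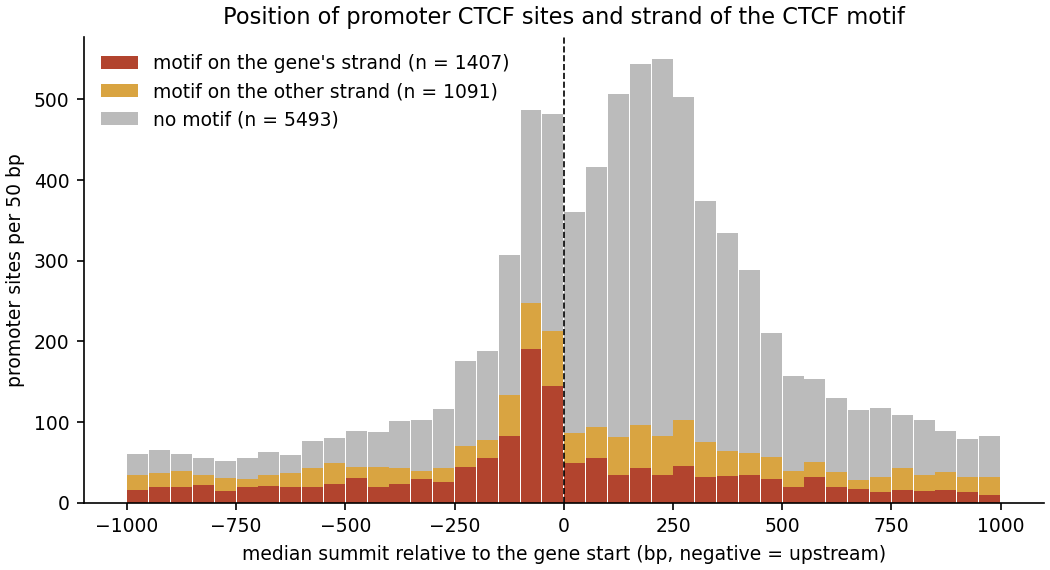
Promoter sites per 50 bp (vertical axis) by the distance of the median summit from the gene start in bp, with negative values upstream and the dashed line at the start. Colours split the bars into sites with the motif on the gene's strand (red, n = 1407), on the other strand (yellow, n = 1091) and without it (grey, n = 5493). Motifs on the gene's strand pile up just upstream of the start, and most sites downstream have none.

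By annotation, 2767 promoter sites (34.6%) lay upstream of the gene, 2238 (28.0%) in an untranslated exon, 1637 (20.5%) in an intron and 1339 (16.8%) in a coding exon. Upstream sites were called in a median of 11 libraries and held the motif in 48.0%, against a median of 6 libraries and shares of 20.1% to 26.4% in the other 3 classes. Where another protein-coding gene started on the opposite strand within the window (645 sites), 24.8% held the motif, against 31.8% of the sites with no such start. Between 26.7% (chromosome 7) and 47.7% (chromosome 11) of the genes of an autosome had a start within 1 kb of a promoter site, against 19.8% on the X chromosome. Promoter sites nevertheless made up 15.0% of the kept sites on the X chromosome, within the range of 12.9% to 19.1% on the autosomes.

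Averaged over single libraries, cohesin was found less often at promoter sites. An Smc3 peak overlapped 22.2% ± 15.5 of the promoter sites and 30.8% ± 11.9 of the other sites, a difference of -8.65 ± 9.90 points (SD over 14 libraries, sign-flip permutation test, p = 0.00867). Promoter sites were lower in 12 libraries and higher in NPC ΔZF1 replicate 2 (64.2% of promoter and 49.2% of other sites) and in PodxlpA replicate 2 (25.0% and 23.2%). Within the 8 rescue libraries the difference was -7.84 points (exact p = 0.102) and within the 6 E14 and polyA libraries -9.74 points (exact p = 0.0625), neither past the threshold. Rad21 overlapped 4.42% ± 1.96 of promoter sites and 9.78% ± 5.85 of other sites, a difference of -5.36 ± 4.04 points, lower at promoter sites in 8 of 8 libraries (exact sign-flip permutation test, p = 0.00781, the smallest it can give). Restricted to sites called in at least 20 CTCF libraries, Smc3 lay on 66.7% of promoter and 74.7% of other sites (difference -7.94 points, permutation p = 0.00329) and Rad21 on 20.5% and 34.6% (difference -14.1 points, exact permutation p = 0.00781). Promoter sites with the motif carried Smc3 in at least 7 of 14 libraries in 37.8%, those without it in 7.17%. With all libraries joined the order depended on the count asked for. An Smc3 peak in at least 1 library lay on 72.0% of promoter and 65.5% of other sites. One in at least 7 libraries lay on 16.7% and 30.2%. A Rad21 peak in at least 1 library lay on 11.2% and 26.0%.

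A small set of promoter sites was called in every CTCF library and carried no cohesin peak in any list. There were 7 such sites of 447, against 28 of the 1436 other sites called in all 22 libraries. They lay at Exd1, at Psmc6, a proteasome ATPase subunit, at Rps29, a ribosomal protein gene, at Adsl, an enzyme of purine synthesis, at Ints10, an Integrator subunit, at Cdc123, an assembly factor of the translation initiation factor eIF2, and at Rab29, a small GTPase. Their mean CTCF percentiles ran from 62.1 at Rab29 to 100 at Exd1, and 3 of them (Exd1, Psmc6 and Rps29) held the motif.

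Between cell types and genotypes, cohesin at promoter sites is given as values, since an exact permutation of 2 libraries against 2 cannot give a p below 0.33 and no model was fitted. Smc3 lay on 43.7% and 64.2% of promoter sites in NPC ΔZF1, against 31.6% and 21.1% in NPC WT. In ESC ΔZF1 it lay on 17.4% and 18%, against 16.1% and 10.0% in ESC WT. In PodxlpA it lay on 6.72% and 25.0%, in Grb10pA on 9.72% and 15.6%, against 11.1% and 20.1% in E14. The NPC ΔZF1 values were above both NPC WT values, but so was the number of Smc3 peaks, 30516 and 34104 against 27798 and 13710. At other sites the same libraries gave 51.2% and 49.2% in NPC ΔZF1, against 50.5% and 25.1% in NPC WT. Rad21 lay on 4.46% and 6.13% of promoter sites in NPC ΔZF1, against 4.04% and 5.87% in NPC WT, where the ranges overlapped, and on 1.68% and 1.98% in ESC ΔZF1, against 3.98% and 7.25% in ESC WT. The ESC ΔZF1 lists held 1306 and 2347 Rad21 peaks and the ESC WT lists 3539 and 10415. The part of list length in these differences was not tested.

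The share of a library's CTCF peaks that lay on promoter sites varied widely within the groups, and no difference between groups passed the test. It was 39.8%, 17.2%, 13.7% and 22.5% in NPC ΔZF1 (replicates 1 to 4), 17.4%, 18.8%, 11.5% and 32.7% in NPC WT, 14.4%, 13.7%, 12.4% and 28.7% in ESC ΔZF1, and 11.4%, 12.2%, 9.56% and 24.3% in ESC WT. All groups overlapped, and replicate 4 was the highest in every group but NPC ΔZF1. ΔZF1 minus WT was 3.18 points in NPCs (adjusted p = 0.629) and 2.93 points in ESCs (adjusted p = 0.629), and NPC minus ESC was 6.0 points in ΔZF1 (adjusted p = 0.629) and 5.75 points in WT (adjusted p = 0.629), by exact two-sided permutation of 4 against 4 libraries adjusted over the 4 comparisons. Between libraries of the same number, ΔZF1 minus WT was 2.97, 1.49, 2.87 and 4.39 points in ESCs, above 0 in 4 of 4 pairs, and 22.4, -1.67, 2.18 and -10.2 points in NPCs. NPC minus ESC was 6.04, 6.61, 1.91 and 8.43 points in WT, also above 0 in 4 of 4 pairs, and 25.5, 3.45, 1.22 and -6.13 points in ΔZF1. The exact sign-flip permutation test of 4 pairs cannot give a p below 0.125, and its adjusted p was 0.250 in both comparisons with 4 pairs above 0. The genotype differences in NPCs and ESCs differed by 0.249 points (exact permutation within cell types, p = 0.974). Within replicates 1 and 4 alone the 4 differences were 6.10, 3.68, 9.66 and 7.24 points, and within replicates 2 and 3 alone 0.255, 2.18, 2.34 and 4.26 points, in the same order. Leaving out NPC ΔZF1 replicate 1 gave -2.33 points for ΔZF1 minus WT in NPCs, and leaving out ESC ΔZF1 replicate 4 gave -0.859 points in ESCs. In NPCs without a degron the share was 8.57% and 9.73% in PodxlpA, 12% and 9.56% in Grb10pA, and 7.05% and 8.34% in E14, where an exact permutation of 2 libraries against 2 allows no p below 0.33 and no model was fitted.

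The percentage of promoter sites called per library varied even more. It was 65.4%, 21.5%, 9.59% and 92.2% in NPC ΔZF1, 64.4%, 47.7%, 34.3% and 59.6% in NPC WT, 80.9%, 28.5%, 23.5% and 56.9% in ESC ΔZF1, and 59.9%, 32.5%, 26.8% and 33.1% in ESC WT. The NPC ΔZF1 libraries held both the lowest and the highest value of the series. ΔZF1 minus WT was -4.33 points in NPCs and 9.34 points in ESCs, and NPC minus ESC was 13.4 points in WT and -0.250 points in ΔZF1, with adjusted p between 0.80 and 1 (exact permutation). Within the deeper replicates 1 and 4 the ΔZF1 minus WT difference in NPCs was 16.8 points and within replicates 2 and 3 it was -25.4 points.

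**Figure D4:**
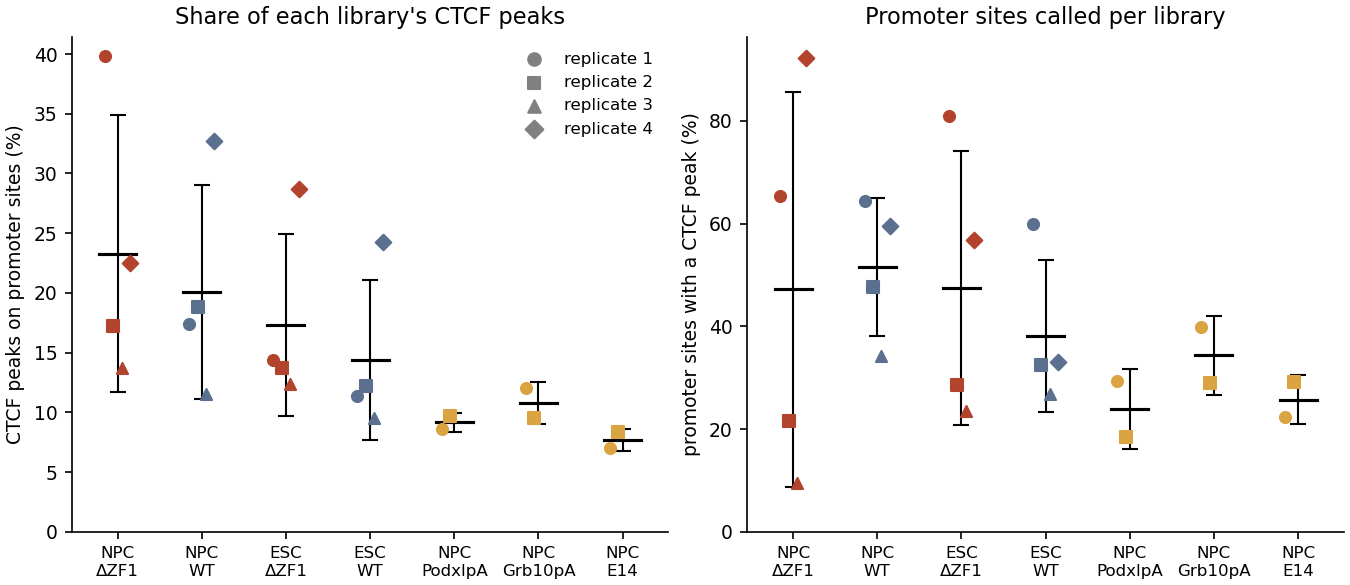
Percentage of each library's CTCF peaks that lie on promoter sites (left) and percentage of the 7991 promoter sites with a peak (right), by group. Each point is a library with its replicate number as the symbol, the bars are group means and whiskers are 1 SD (n = 4, or n = 2 for PodxlpA, Grb10pA and E14). The 4 rescue groups overlap in both panels, and in the right panel replicates 1 and 4 lie above replicates 2 and 3 in each of them.

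Promoter sites that switched fully between groups were few. A switched site was called in all libraries of one group and none of the other. Comparing ΔZF1 with WT in NPCs, 0 promoter sites were called in ΔZF1 alone, as were 0% of all kept sites. In WT alone 6 were called (0.0751% of the promoter sites), against a background of 223 of all 52646 kept sites (0.424%). In ESCs 1 promoter site was called in ΔZF1 alone (0.0125% of promoter sites, background 0.00190% of all kept sites) and 3 in WT alone (0.0375%, background 0.0494%). The NPC WT sites included those at Mlph, which links melanosomes to myosin, Arhgap18, a GTPase-activating protein, Fam71f2, Tmcc2 and Tmem87b. At Mlph, the highest of them, the percentiles were 87.3, 58.8, 24.0 and 77.8 in NPC WT, and no peak was called in any of the 4 NPC ΔZF1 libraries. The ESC WT sites were at Krt8, an epithelial keratin, Fam71f2 and Ucp1, the uncoupling protein of brown fat. Krt8 had percentiles of 70.6, 27.6, 13.4 and 54.4 in ESC WT and no peak in ESC ΔZF1. The Fam71f2 site, 897 bp upstream of the start, was on both lists. Its percentiles were 43.3, 25.3, 32.2 and 16.9 in NPC WT and 31.2, 32.9, 18 and 8.15 in ESC WT, with no peak in the 8 ΔZF1 libraries. The ESC ΔZF1 site was at Gm10767 (percentiles of 42.3, 2.58, 27.1 and 17.4). For both directions together, leaving out NPC ΔZF1 replicate 4 gave 92 switched promoter sites in NPCs, and leaving out ESC ΔZF1 replicate 3 gave 22 in ESCs. Leaving out a library loosens the rule, so such counts can only stay equal or rise. These recounts were not made over all kept sites, so they have no background beside them.

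Motif-bearing switched sites are shown with the core in capitals, on the strand of the motif.

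Arhgap18 (chr10:26752713-26752742, minus): tcatcaatCCTGCAGGGGGCGCcagtgata
Tmem87b (chr2:128817472-128817501, minus): aggtctcaCCAGTAGGTGGCACtaggaaat
Krt8 (chr15:102004390-102004419, plus): gtggctagACACTAGAGGGCAGggcctaac
Fat3 (chr9:16500879-16500908, minus): ggacttgaCCAGCTGGGGTCGCtgagctaa

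The Tmem87b core matched the consensus at every letter and the Arhgap18 and Krt8 cores at all but 1. Their percentiles were 34.3, 25.7, 22.7 and 12.5 at Tmem87b and 36.2, 11.1, 53.3 and 23.4 at Arhgap18 in NPC WT.

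Between cell types in WT, 13 promoter sites were restricted to NPCs (0.163% of promoter sites, background 0.0722% of all kept sites) and 0 were restricted to ESCs (background 0.0608%). Without NPC WT replicate 3, which makes the rule looser, 145 promoter sites switched in either direction, a recount without a background over all kept sites. The highest of the 13 was at Cdh2, which encodes N-cadherin, the adhesion molecule of neural cells, with percentiles of 81.8, 44.3, 13.8 and 81.7 in NPC WT and no peak in ESC WT. Fat3, an atypical cadherin of neurons, had 73.8, 6.84, 1.53 and 36.1. Enpp1, Ankrd16, Slc7a2, Galnt1, Pdha1, Cd81, Glis1 and Fbxl14 followed, with mean percentiles between 9.94 and 25.1. One of the 13, at Fat3, held the motif. In ΔZF1, 0 promoter sites were restricted to NPCs (background 0%) and 4 to ESCs (0.0501% of promoter sites, background 0.243%), at 2010109I03Rik, Lrrn3, Gstm1, a glutathione S-transferase, and Gprin2. Cdh2 was called in 2 of 4 NPC ΔZF1 and in 2 of 4 ESC ΔZF1 libraries, and in none of the E14, PodxlpA and Grb10pA NPC libraries.

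In the truncation lines, 21 promoter sites were called in both PodxlpA and no E14 library (0.263% of promoter sites, background 0.549%) and 64 in both E14 and no PodxlpA library (0.801%, background 3.34%). For Grb10pA the counts were 233 (2.92%, background 2.49%) and 57 (0.713%, background 3.99%). Both comparisons share the 2 E14 libraries. The highest site of the first set was at Atcay, with percentiles of 57.8 and 14.7 in PodxlpA, and the highest of the second at Sec31b, with 81.6 and 61.0 in E14. With the limit of 500 bp instead of 1 kb the PodxlpA count was 49 rather than 85 for both directions together. Leaving out 1 library gave 278 to 454 sites for PodxlpA and 425 to 1121 for Grb10pA. With fewer libraries the rule is looser, so these counts could only stay equal or rise. The recounts for the truncation lines were not made over all kept sites.

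Reproducible sites, called in at least 3 of 4 libraries, were followed from group to group, and the shares of promoter and other sites were not tested against each other. In NPC ΔZF1, 1458 (43.9%, 95% Wilson interval 42.2 to 45.6) of the 3324 promoter sites reproducible in NPC WT were again reproducible, against 34.8% of the other sites and 36.7% of all sites. In ESC ΔZF1, 1874 (81.4%, 79.7 to 82.9) of the 2303 reproducible in ESC WT were so, against 61.7% of the other and 64.3% of all sites. In NPC WT, 2099 (91.1%, 89.9 to 92.2) of the same 2303 sites were so, against 66.2% of other and 69.5% of all sites. In NPC ΔZF1, 1382 (59.0%, 57.0 to 61.0) of the 2342 reproducible in ESC ΔZF1 were so, against 38.7% of other and 42.2% of all sites. In reverse, 2099 of 3324 promoter and 10061 of 12853 other sites reproducible in NPC WT were so in ESC WT. From ESC ΔZF1 to ESC WT these were 1874 of 2342 and 9368 of 11291. From NPC ΔZF1 to ESC ΔZF1 they were 1382 of 1533 and 4365 of 4738, and to NPC WT 1458 of 1533 and 4472 of 4738. In reverse the promoter share was the lower one except in the last, so its order turns on the reference group. The recounts below keep the first direction. The intervals cover counting error only, and the shares turn on single libraries, with 3 of 3 libraries required in the group that lost one. Without NPC ΔZF1 replicate 4 the NPC share was 19.1% of promoter and 14.8% of other sites, and without NPC WT replicate 1 it was 61.6% and 52.6%. The promoter share was the lower one without NPC ΔZF1 replicate 1 (20.2% of promoter and 21.3% of other sites) and without NPC WT replicate 3 (47.2% and 49.9%), and the higher one in the other 6 of 8 such recounts in NPCs and in 8 of 8 in each of the other 3 comparisons. Without NPC ΔZF1 replicate 4 the share of NPC ΔZF1 against ESC ΔZF1 was 26.9% of promoter and 16.6% of other sites.

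Relative enrichment was compared by converting each library's ranks to normal scores and fitting them with limma, over sites called in all 8 libraries of a comparison, so an effect is in SD of the score and not a fold change. In NPC WT against ESC WT, 10 of 1381 promoter sites passed an adjusted p of 0.05 (0.724%), all of them higher in NPCs, against 15 of 5983 sites of any kind (background 0.251%). At an unadjusted p under 0.05, 289 of the 1381 passed (20.9%), 232 higher and 57 lower, against 16.2% of all sites, whose directions at this p were not counted. This fit left the replicate numbers out. With the replicate number as a block 81 promoter sites passed, 73 higher and 8 lower. The share of all sites passing with the block was not counted, so these 81 have no background beside them. With replicates 1 and 4 alone or replicates 2 and 3 alone 0 passed. Leaving out single libraries gave between 0 (without ESC WT replicate 1) and 46 (without NPC WT replicate 3), also without a count over all sites.

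The 10 sites were at Exoc8, an exocyst subunit, Hira, a chaperone of histone H3.3, Nfatc1, a calcineurin-regulated transcription factor, Nme2, a nucleoside diphosphate kinase, Efcab2, Kcng2, a modifier subunit of potassium channels, Gabrg3, a GABA-A receptor subunit, Rspo1, a secreted enhancer of Wnt signaling, Cdc123 and Creb3l1, a membrane-bound transcription factor. At Nfatc1 the percentiles were 96.4, 92.4, 91.8 and 95.7 in NPC WT, against 57.5, 34.0, 36.0 and 32.7 in ESC WT. The score was 2.2 ± 0.25 (SE) higher in NPC WT (limma, adjusted p = 0.0150). At Gabrg3 they were 94.6, 94.6, 93.0 and 94.1 in NPC WT, against 63.4, 55.9, 31.7 and 62.7 in ESC WT (1.82 ± 0.30, limma adjusted p = 0.0449). At Cdc123, one of the sites without cohesin, they were 96.0, 93.3, 93.5 and 91.4 in NPC WT, against 84.8, 57.0, 61.5 and 37.2 in ESC WT (1.52 ± 0.20, limma adjusted p = 0.0188). At Exoc8, the largest difference (2.37 ± 0.36, limma adjusted p = 0.0350), they were 85.8, 89.6, 50.5 and 74.6 in NPC WT, against 23.6, 19.2, 2.86 and 1.14 in ESC WT. The 2 groups did not overlap at any of the 10 sites, but the fit to these libraries chose the sites, so this is no further test. In E14 NPCs, however, the percentiles were 1.23 and 82.1 at Cdc123, 13.5 and 28.2 at Gabrg3 and 10.7 and 7.30 at Hira, below the values of NPC WT. Several of the sites also ranked high in ESC ΔZF1. Nfatc1 was at 88.1, 32.8, 87.1 and 84.8 there, Creb3l1 at 87.2, 80.5 and 86.9 in the 3 libraries that called it, and Gabrg3 at 93.9, 25.7 and 89.0 in 3.

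In ESC ΔZF1 against ESC WT 1 of 1127 promoter sites passed (background 0.0386% of 5188 sites), at Midn, which encodes midnolin, a factor in the proteasomal turnover of nuclear proteins. Its percentiles were 75.2, 44.9, 21.4 and 43.3 in ESC ΔZF1, against 95.8, 94.7, 92.7 and 92.9 in ESC WT, a difference in score of -1.97 ± 0.23 (SE, limma adjusted p = 0.0186). The same site was at 75.7 and 93.0 in the 2 NPC ΔZF1 libraries that called it, against 98.3, 97.8, 97.9 and 98.8 in NPC WT. Midn no longer passed with replicates 1 and 4 alone, with replicates 2 and 3 alone, or in 6 of the 8 fits that left out 1 library, where its effect lay between -2.06 and -1.86. In NPC ΔZF1 against NPC WT 0 of 625 promoter sites passed (background 0%). An unadjusted limma p under 0.05 was found at 28 of them (4.48%), against 7.52% of all sites tested. In NPC ΔZF1 against ESC ΔZF1 0 of 586 passed (background 0%). Here 19 had an unadjusted limma p under 0.05 (3.24%), against 5.25% of all sites tested.

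Promoter sites also included a group that all rescue cells shared and no E14 or polyA library showed. There were 57 promoter sites called in all 16 rescue libraries and none of the 6 PodxlpA, Grb10pA and E14 libraries, of 94 such sites in all (0.179% of kept sites), and 0 promoter sites called in all 6 and no rescue library, of 4 such sites (0.00760%). The 57 sites were chosen by these calls, so the calls are no test. The motif was absent from 56 of the 57 (98.2%), Fzd2 being the exception, against 68.7% of all promoter sites and 85.4% of the promoter sites that no E14 or polyA library called. It was present at 2 of the 37 other sites with the same calls. Of the 57, 46 (80.7%) lay within 250 bp of the start, against 50.4% of all promoter sites. No Rad21 peak was found in any library at 56 (98.2%), Eps15 being the exception, against 88.8% of all promoter sites. An Smc3 peak was found in a median of 2 of 8 rescue libraries, and 15 sites (26.3%) had none in any library, against 28.0% of all promoter sites. Most promoter sites were called in fewer libraries than these. Of the 883 promoter sites called in 15 to 19 libraries, the 57 among them, 92.4% had an Smc3 peak in some library. A Rad21 peak in some library lay on 23.8% of the 883, and 49.7% held the motif.

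Several of these sites ranked among the highest of their libraries. Their mean percentiles ran from 55.9 (G3bp2) to 99.9 (Cenpu) with a median of 93.5, and 22 exceeded 95. Cenpu, a centromere protein gene, lay between 99.8 and 100 in all 16 rescue libraries. Eps15, an adaptor of clathrin-mediated endocytosis, lay between 99.4 and 99.9, Fut10, of the fucosyltransferase family, between 99.3 and 99.9, and Adgrl1 between 98.5 and 99.9. Kcnj4, an inward rectifier potassium channel, Smarcd2 and Arid1a, subunits of the SWI/SNF chromatin remodeler, Unc5a, a netrin receptor, and the zinc finger genes Zfp609 and Casz1 followed with means of 98.1 to 99.2. The forebrain homeobox genes Emx1 and Emx2 were among the 57, with means of 93.5 at Emx1 and 79.4 at Emx2. At Cenpu the group means were 99.9 in NPC ΔZF1, 99.9 in NPC WT, 100 in ESC ΔZF1 and 100 in ESC WT. Rescue and E14 cells differ in the tagged transgene, the degron, the drugs and the library series, which cannot be told apart.

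**Figure D5:**
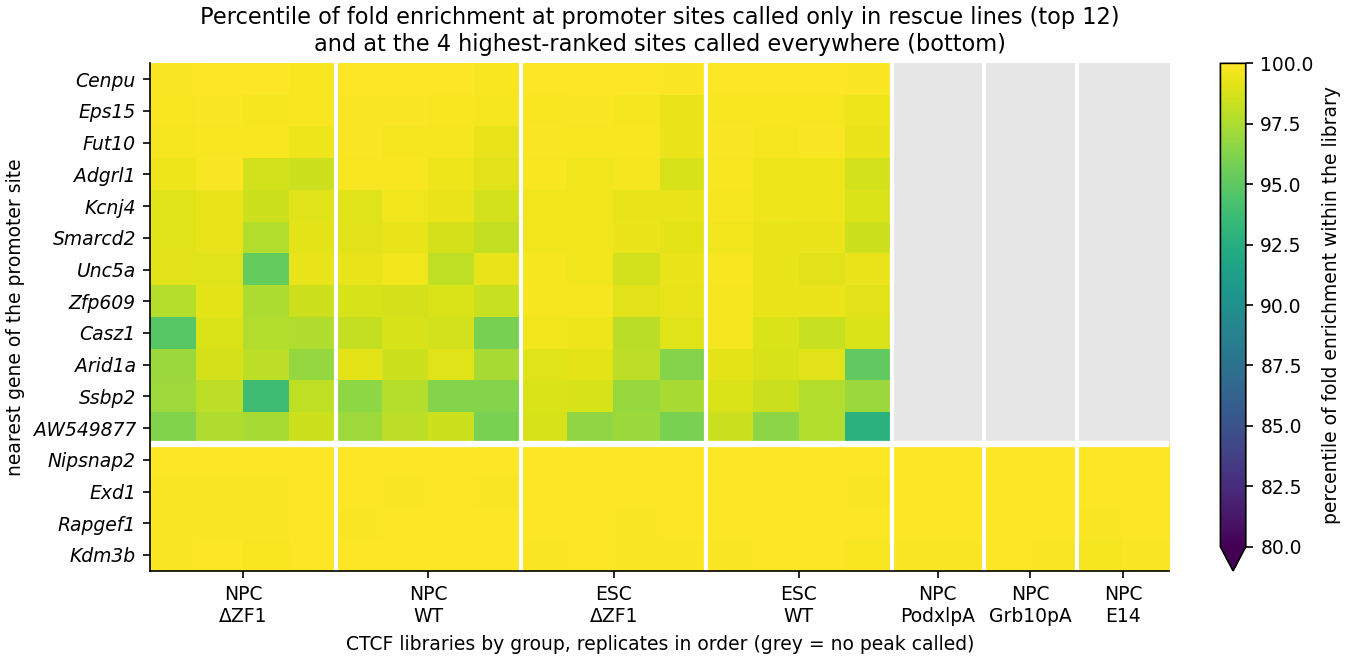
Percentile of fold enrichment (colour, from 80 to 100) in each of the 22 CTCF libraries, grouped along the horizontal axis, for the 12 highest-ranked promoter sites called in all rescue libraries and no other (above the white line) and the 4 highest-ranked promoter sites called in all 22 (below it). Grey means that no peak was called. The 12 sites are near the top of the scale in the rescue groups and grey in PodxlpA, Grb10pA and E14, where the 4 lower sites stay near 100.

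A run of letters recurred at these sites. The 8-letter run AAACCCGG, on either strand within 75 bp of the summit, was found at 14 of the 57 sites (24.6%). It was picked from 5792 runs, after they had been counted, for the largest excess of its share over that at all promoter sites, so this share is a description. The run was found at 79 of all promoter sites (0.989%), at 131 of 21951 protein-coding starts (0.597%), at 3 of the 37 rescue-restricted sites that were not promoter sites, and at 11 of the 515 promoter sites called in all rescue and at least 1 of the 6 other libraries. Examples are given with the run in capitals.

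Eps15 (chr4:109280147-109280176, minus): gcctccctggaAAACCCGGtgcggataggg
Kcnj4 (chr15:79506060-79506089, minus): ggcgaggaggaAAACCCGGgcaggatccgc
Zfp609 (chr9:65827804-65827833, plus): agtgcacgaggAAACCCGGaacctggatgc
Casz1 (chr4:148804305-148804334, minus): ggtggcatgcaAAACCCGGgccggatcgcg
Trappc9 (chr15:73061084-73061113, minus): ggtcttcgggaAAACCCGGggcagatctta

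The run lay within 25 bp of the median summit in these 5 sites. Kcnj4, Zfp609 and Trappc9 were at mean percentiles of 99.2, 98.9 and 95.9.

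Promoter sites at genes of known function were then listed. Of 20 genes for CTCF, cohesin and their regulators 11 had a promoter site (55.0%), against 34.9% of all protein-coding genes. Sites called in all 22 libraries lay at Ctcf itself (percentiles 88.2 to 100), at Stag2, a cohesin subunit (69.3 to 99.6), at Esco1, a cohesin acetyltransferase (36.6 to 99.7), and at Pds5a, a cohesin regulator (0.0782 to 96.4). None of these 4 sites had a Rad21 peak in any library, and Smc3 peaks lay on them in 6 to 9 of 14 libraries. The Ctcf site had no motif, and it lies in the gene whose endogenous copies carry the degron in the rescue lines.

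Of 20 pluripotency genes 7 had a promoter site (35.0%), and Pou5f1, Sox2 and Nanog had none. Tbx3 was called in 3 of 4 NPC ΔZF1, 4 of 4 NPC WT, 4 of 4 ESC ΔZF1 and 4 of 4 ESC WT libraries, and Fgf4, an ESC growth factor, in 2, 3, 4 and 4. Of 22 neural progenitor genes 10 had one (45.5%), and Pax6 and Sox1 had none. The site 801 bp upstream of Nes, which encodes the intermediate filament nestin, was called in 1 of 4 NPC ΔZF1, 3 of 4 NPC WT, 2 of 4 ESC ΔZF1 and 4 of 4 ESC WT libraries, with a motif. Of 15 neuron genes 6 had a promoter site (40.0%), of 10 glia genes 3 (30.0%) and of 16 mesoderm and endoderm genes 5 (31.2%). Elavl4, a neuronal RNA-binding protein gene, was called in all 22 libraries (percentiles 44.2 to 94.9), and Gfap, the astrocyte filament gene, in 21. Of 18 genes for RNA polymerase II and basal factors 6 had one (33.3%), with Polr2c called in 22 libraries, and of 16 housekeeping genes 5 (31.2%), with Actb called in 22. Among the edited or displayed genes, Podxl had a site 208 bp downstream of its start, called in 2 of 4 NPC ΔZF1, 1 of 4 NPC WT, 2 of 4 ESC ΔZF1 and 3 of 4 ESC WT libraries and in none of the PodxlpA, Grb10pA and E14 libraries. Dlx3 had one called in 3 ΔZF1 libraries at percentiles of at most 0.565, and Grb10 had none within 1 kb of its start. The lists were chosen with these data known, and a call in the list of a gene says nothing of its transcription.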

How the data were processed

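The authors aligned paired-end reads to mm10 with Bowtie2, kept alignments of mapping quality 30 or more, took out duplicates with Picard and blacklisted regions with bedtools, and ran MACS2 on each sample at q 0.01. Tool versions are not given in the sources used here. The deposited lists hold, per peak, position and summit, a display score that was not used, the fold enrichment (the ratio of ChIP signal to its local background) and −log10 p- and q-values, as the authors made them. The differential test of the study needs reads and was not run here. The depth is not stated and was replaced by the background coverage that fold and p imply, taken at the low end of the peaks that could be solved. These were 35.4% (Grb10pA replicate 2) to 100% of the peaks tried in a CTCF library. The 10 input samples had no lists here and were left out.

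Peaks of the 22 CTCF libraries overlapping by at least 1 bp were merged (68126 sites), and the 52646 called in 2 or more libraries were kept. Gene starts were those of protein-coding genes in GENCODE M21, and sequence was read from the RefSeq copy of the same build. The CTCF motif was the 14-letter core of its consensus, allowed 2 mismatches. In a library, a site took its peak with the highest fold enrichment. Libraries were compared by exact two-sided permutation (smallest p 0.0286 for 4 against 4, 0.33 for 2 against 2), promoter with other sites by sign flips over libraries (exact up to 8 libraries, otherwise 100000 resamples), and ranks with limma 3.58.1 in R 4.3.3 with Benjamini-Hochberg adjustment over all sites tested. The scripts were tested on simulated data. Intervals are 95% Wilson intervals.

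Same-numbered libraries of compared groups deviated together (correlations of 0.22 to 0.59 over sites in the 4 comparisons). Those of different numbers gave -0.48 to 0.39. For replicate 1 of both NPC ΔZF1 comparisons a different number reached more than the same number, 0.37 against 0.31 and 0.39 against 0.35. The numbers were taken to pair libraries in the alternatives, including a fit with the number as a block, although the labels name no shared day or culture. The main tests left the numbers out. No pair of libraries within a group had identical lists. The study describes the ChIP-seq libraries as biological replicates, and the labels name no culture for them. The other alternatives were distance limits of 500 bp and 2 kb, −log10 q of at least 5, peaks cut to 100 bp around the summit, sites in at least 3 libraries, equal peak numbers, quantile-normalized log2 fold enrichment, at most 1 motif mismatch, replicates 1 and 4 alone, replicates 2 and 3 alone, and each library left out. The labels name no batch. Leaving out all replicate 4 libraries was added after seeing the data. Named sites were the 10 highest-ranked sites called everywhere, switched sites and sites past the limma threshold (at most 10 each), listed genes, genes with the most sites and the widest site. The rescue-restricted sites, the sites without cohesin and the letter run were chosen after their values were seen. The members and gene lists were chosen with earlier results of these data known. Some single-gene results are not reported here.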

Additional observations from a re-analysis of the deposited data

Results flagged for a closer look

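In ESC ΔZF1, 28.7% of the CTCF peaks of replicate 4 lay on promoter sites, against 12.4% to 14.4% in the other 3 libraries of the group, which set that library apart from its group. Of 20 group values examined in this way 1 stood out, and chance gives about 1 in 20. The background coverage of this library, 2.39 fragments per bp, was the highest of the 22 CTCF libraries. The part of depth in the share was not tested. Replicate 4 also had the highest share in ESC WT (24.3%, against 9.56% to 12.2%) and in NPC WT (32.7%, against 11.5% to 18.8%). In NPC ΔZF1 replicate 4 had 22.5% and replicate 1 had 39.8%.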

How the results depend on the processing

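The lower motif share, the larger width and the lower Rad21 overlap of promoter sites kept their direction and their side of the threshold under every alternative run for them. Of the summary values recomputed, apart from leaving out single libraries, 262 counted as kept, 64 moved, 12 reversed, 2 lost and 1 gained the threshold. A tested value counted as kept when its direction and side of the threshold were unchanged, whatever its size. The share difference of ΔZF1 minus WT in NPCs, 3.18 points, thus counted as kept at 0.255 in replicates 2 and 3. Only values without a test were judged by size. The cause of the changes was not tested.
The percentage of promoter sites called reversed for NPC minus ESC in ΔZF1 with a 500 bp limit (0.956), equal peak numbers (5.18) and replicates 1 and 4 alone (9.93), for ΔZF1 minus WT in NPCs with equal peak numbers (3.17) and replicates 1 and 4 alone (16.8), and in ESCs with replicates 2 and 3 alone (-3.65). The NPC minus ESC genotype effect on the share reversed with sites in at least 3 libraries (-0.394) and replicates 2 and 3 alone (-1.93). For promoter against other sites, calls differed by 0.339 points with a 2 kb limit, 8.04 in rescue libraries and -21.4 in E14 and polyA libraries, percentile by 1.35 with −log10 q of at least 5 and 1.72 in E14 and polyA libraries, and Smc3 by -7.84 in rescue and -9.74 in E14 and polyA libraries.
Switched promoter sites numbered, for ΔZF1 against WT in ESCs, 708 in replicates 1 and 4, 177 in replicates 2 and 3 and 15 without replicate 4. In NPCs they numbered 810, 854 and 164 in the same order, 2 at 500 bp, 16 at 2 kb and 19 with cut peaks. For NPC against ESC they numbered 542, 364 and 30 in WT, with 8 at 500 bp, and 601, 238 and 55 in ΔZF1, with 2 at 500 bp and 8 at 2 kb. For PodxlpA against E14 they numbered 49 at 500 bp and 137 at 2 kb. Counts of switched sites from fewer libraries could only stay equal or rise, since the rule is then looser. The switched sites and rank calls of this section were recounted for promoter sites only, so no background stands beside them. Retained shares (replicates 1 and 4, replicates 2 and 3, without replicate 4, equal peak numbers, cut peaks) were 94.4%, 67.5%, 67.5%, 87.7% and 79.3% for ΔZF1 in ESCs, with 78.0% at 2 kb, and 87.4%, 28.6%, 27.5%, 68.6% and 41.1% for ΔZF1 in NPCs, with 45.9% at 500 bp. For NPC against ESC in ΔZF1 they were 85.1%, 44.5%, 41.9%, 78.2% and 55.8%, with 61.6% at 500 bp. In WT they were 87.8% in replicates 2 and 3, 86.3% without replicate 4, 88.4%, 88.8%, 92.4% at 500 bp and 88.0% at 2 kb.
Rank calls for ΔZF1 against WT in ESCs numbered 0 with equal peak numbers, in replicates 1 and 4, in replicates 2 and 3 and without replicate 4. For NPC against ESC in WT they numbered 3 at 500 bp, 6 with −log10 q of at least 5, 2 with equal peak numbers, 81 with the replicate block and 72 with quantile-normalized values. They numbered 0 in replicates 1 and 4, in replicates 2 and 3 and without replicate 4. The block changed no other call. Of the named sites' recomputed calls 106 kept the threshold, 91 lost it and 0 reversed.
Smc3 differences at sites called in at least 20 libraries were 11.9 and 14.4 points for ΔZF1 minus WT in ESCs and NPCs and 20.2 and 22.6 for NPC minus ESC in WT and ΔZF1 (23.8 with summits within 100 bp). Those of Rad21 were -17.3 for ΔZF1 minus WT in ESCs, and -4.96 and 13.3 for NPC minus ESC in WT and ΔZF1.
Leaving out single libraries gave shares differing by -0.859 to 6.23 points (ΔZF1 minus WT, ESCs), -2.33 to 7.37 (NPCs), 1.55 to 9.05 (NPC minus ESC, WT) and 0.490 to 9.79 (ΔZF1), and calls by -1.80 to 17.3, -19.3 to 8.21, 9.11 to 20.7 and -15.3 to 12.3 points. The genotype effect differed by -5.26 to 4.45. Switched sites numbered 5 to 22, 7 to 92, 13 to 145 and 4 to 31, for PodxlpA 278 to 454 and for Grb10pA 425 to 1121. Retained shares were 55.2% to 94.1%, 19.1% to 61.6%, 76.5% to 97.7% and 26.9% to 80.8%. Rank calls numbered 0 to 6, 0 to 0, 0 to 46 and 0 to 0. Smc3 differences were 1.58 to 7.68, 17.3 to 37.8, 8.05 to 18.6, 26.0 to 46.5, for PodxlpA -8.87 to 9.41 and for Grb10pA -7.39 to 1.57, and those of Rad21 -5.42 to -2.15, -0.576 to 1.25, -2.29 to 0.976 and 2.63 to 4.30. Rescue-restricted promoter sites numbered 57 to 78, against 57 with all libraries. Like the counts of switched sites, this count could only stay equal or rise when a library was left out. With few fragments per bp in replicates 2 and 3, a missing call there is not evidence of a missing site.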

Other observations

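Genes with several promoter sites showed that neighbouring sites around a start were called unequally. At Tcp11 the sites 844 bp downstream and 960 bp upstream were called in 20 and 18 libraries, and the site 21 bp upstream of the start in 2. At Cgnl1, which encodes paracingulin of cell junctions, sites 87 and 913 bp upstream were called in 16 and 15 libraries and a site 937 bp downstream in 6. All 3 sites of Tead1, a transcription factor of the Hippo pathway, were called in 2 to 5 libraries. These genes were chosen for their number of sites, and the values are descriptions.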
